A study of Mus musculus with 24 samples.

Results

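9 genes of acetylcholine signalling were followed: Chat, Slc5a7, Slc18a3, Ache, Lhx8 and the muscarinic receptor genes Chrm1, Chrm2, Chrm3 and Chrm4. They were read from all probe sets of the array that the platform annotation pairs with one of these symbols and no other gene. This gave 9 probe sets, of 8 of the 9 genes, among the 45037 probe sets left after the controls. Chrm1 had 2 of them, and Chrm2 was not analysed here. Of the 9 probe sets, 5 passed the filter on low values (a mean of at least 4 on the log2 scale in striatum or in cerebellum), and they belong to Ache, Lhx8, Chrm1 and Chrm4. In all, 20738 probe sets passed it.

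Total RNA had been hybridised to 24 Affymetrix MG430 2.0 arrays, 6 in each of 4 groups: Q111 striatum, wild-type striatum, Q111 cerebellum and wild-type cerebellum. Q111 mice carried 2 copies of a knock-in allele of the huntingtin gene with a lengthened CAG repeat (HdhQ111/HdhQ111), and wild-type mice carried 2 wild-type alleles (Hdh+/Hdh+, labelled Q7/Q7). The change lies in the gene's own locus, so the allele is present in every cell of the mouse and is not limited to cholinergic neurons. All groups are labelled with the same age range, 3 to 10 weeks, and strain, sex and whether the tissues came from the same mice are not given in the sources used here. The replicates are called biological without naming the mice, so the p-values refer to how far these samples spread, part of which may be technical. Array values are GCRMA values read as log2, and a probe set's value was compared only with itself on other arrays.

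Acetylcholine is made from choline by choline acetyltransferase (Chat), after the high-affinity transporter Slc5a7 has taken choline up into the nerve terminal. The transporter encoded by Slc18a3 loads it into vesicles, and acetylcholinesterase (Ache) breaks it down after release. In the striatum it comes mostly from a small class of large interneurons whose formation needs the LIM homeodomain transcription factor Lhx8, and it acts on projection neurons, among others, through muscarinic receptors. M1 and M3 receptors (Chrm1, Chrm3) couple to Gq proteins and phospholipase C, and M2 and M4 receptors (Chrm2, Chrm4) couple to Gi and Go proteins.

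The tissue labels were checked against marker genes. The mean of 8 striatal projection neuron markers (such as Penk, Ppp1r1b and Drd1) was 11.90 to 12.58 in Q111 striatum and 11.89 to 12.83 in wild-type striatum, against 5.91 to 6.19 in Q111 cerebellum and 5.98 to 6.26 in wild-type cerebellum. The mean of 6 granule neuron markers was 4.35 to 4.81 in Q111 striatum and 4.28 to 4.79 in wild-type striatum, and at least 12.78 on every cerebellum array. Within a group, arrays correlated at 0.983 to 0.993 over the probe sets past the filter. Arrays give no read depth, and their number limits the precision.

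The genes that make, import and load acetylcholine gave readings under the filter on every array. Chat, the enzyme that defines cholinergic neurons, read 1.85 to 1.89 with a median of 1.87 in Q111 striatum, and 1.83 to 1.91 with a median of 1.87 in wild-type striatum. In cerebellum it read 1.84 to 1.86 in Q111 and 1.85 to 1.89 in wild type. The Chat groups overlapped in all these comparisons.

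Slc5a7, the choline transporter, read 1.99 to 2.31 with a median of 2.01 in Q111 striatum and 1.98 to 2.36 with a median of 2.18 in wild-type striatum. In cerebellum it stayed between 2.00 and 2.06 in Q111 and between 2.01 and 2.09 in wild type. Its spread was wider over the striatum arrays (SD 0.14 in both genotypes, n = 6 each) than over the cerebellum arrays (SD 0.02 in Q111 and 0.03 in wild type). Striatum and cerebellum still overlapped in both genotypes.

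Slc18a3, the vesicular transporter, was also under the filter on every array, but its tissues did not overlap. It read 2.01 to 2.13 in Q111 striatum against 1.51 to 1.55 in Q111 cerebellum, and 1.99 to 2.05 in wild-type striatum against 1.52 to 1.58 in wild-type cerebellum. Among the 24299 probe sets under the filter, 12.8% in Q111 and 6.49% in wild type were likewise higher in striatum without overlap. Separation within a single genotype is thus no rare event among readings this low. The share separated in both genotypes, or by as wide a gap, was not counted. Chat and Slc18a3 share a locus, with start sites 1059 bases apart on chromosome 14 in the RefSeq annotation of GRCm38.p6, and Slc18a3 lies inside the Chat gene's first intron in mammals.

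Chrm3, the other member under the filter, read 2.45 to 2.58 in Q111 striatum, 2.44 to 2.48 in wild-type striatum, 2.43 to 2.49 in Q111 cerebellum and 2.44 to 2.52 in wild-type cerebellum. These 4 genes stayed out of the tests of genotype and tissue differences, since a low reading of a probe set is no measure of how much of the transcript was there.

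**Figure D1:**
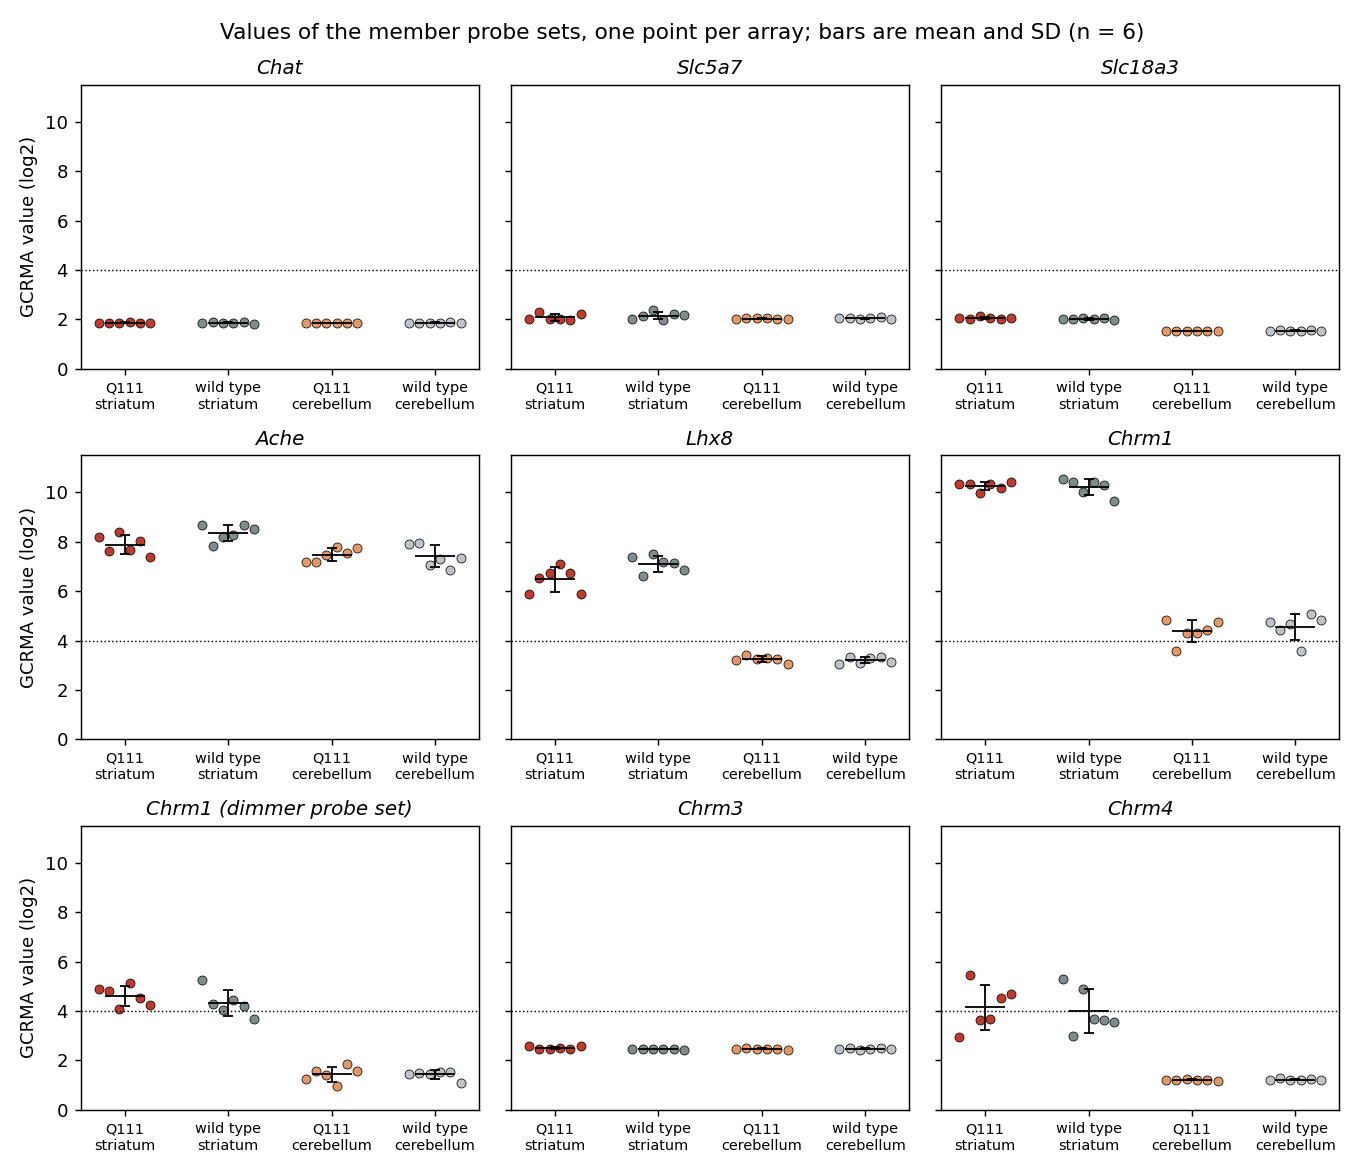
GCRMA values (log2, vertical axis) of the 9 member probe sets on each array, by group, with Q111 left of wild type; bars are mean and SD (n = 6) and the dotted line is the filter at 4. Chat, Slc5a7, Slc18a3 and Chrm3 stay under the line on all 24 arrays, Lhx8 and Chrm1 separate striatum from cerebellum, and the Lhx8 values of Q111 striatum reach lower (5.88) than those of wild-type striatum (6.61).

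With all arrays fitted, Lhx8 was the member called between genotypes, in striatum, and most fits that left out 1 striatum array lost that call. Its 300-base promoter window is printed here, with that of Ache, because these genes had the largest striatal genotype differences among the members. The windows run from 250 bases before to 50 after the start site, from RefSeq on GRCm38.p6, read 5′ to 3′ on the gene's strand. The Lhx8 window is chr3:154330511-154330810 on the minus strand and the Ache window is chr5:137288004-137288303 on the plus strand. Capitals mark matches, on either strand, to 5 motifs: the GC box GGGCGG, the EGR element GCGGGGGCG, the E box CACGTG, the LIM homeodomain element TAATTA and the TATA box TATAAA. The GC box and the EGR element can overlap.
Lhx8: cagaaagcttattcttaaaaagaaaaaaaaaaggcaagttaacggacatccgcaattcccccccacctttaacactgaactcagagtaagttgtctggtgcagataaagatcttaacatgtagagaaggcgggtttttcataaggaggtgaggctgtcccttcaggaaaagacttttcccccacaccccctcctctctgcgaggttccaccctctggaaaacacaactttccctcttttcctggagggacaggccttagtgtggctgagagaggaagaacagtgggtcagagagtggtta
Ache: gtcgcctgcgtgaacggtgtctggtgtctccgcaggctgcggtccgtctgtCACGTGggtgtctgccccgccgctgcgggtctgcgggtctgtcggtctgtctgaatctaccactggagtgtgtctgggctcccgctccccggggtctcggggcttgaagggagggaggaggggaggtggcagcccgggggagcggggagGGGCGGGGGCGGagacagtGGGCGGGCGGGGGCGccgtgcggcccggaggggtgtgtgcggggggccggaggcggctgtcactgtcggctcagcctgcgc
The Lhx8 window held 0 matches and has a GC content of 47.0%. The Ache window held 7, namely 4 GC boxes, 2 EGR elements and 1 E box, at a GC content of 74.0%. Over 32851 windows of this length, 35.7% held the GC box, 2.91% the EGR element, 7.15% the E box, 5.29% TAATTA and 13.6% the TATA box. A match is a run of letters and no sign that a factor binds there.

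Lhx8 read 5.88 to 7.10 with a median of 6.63 in Q111 striatum, against 6.61 to 7.52 with a median of 7.15 in wild-type striatum. The lowest Q111 arrays were replicates 1 and 6, at 5.88 and 5.89. All 6 Q111 arrays lay below the wild-type mean, and 3 of them lay inside the wild-type range, so the groups overlapped.

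Lhx8 averaged 6.48 ± 0.50 in Q111 striatum and 7.11 ± 0.33 in wild-type striatum (SD, n = 6 each), which is 64.9% of the wild-type level. The log2 difference was -0.62 (SE 0.17, 95% interval -0.98 to -0.27, adjusted p = 0.0469 by limma over all 20738 probe sets), and the two-sided exact permutation test gave p = 0.0303. The SE, interval and adjusted p rest on 1 spread shared by all 4 groups. That spread includes the cerebellum groups, where the Lhx8 SD was 0.12 in each and all its values lay under 4. With all arrays fitted, Lhx8 was the 1 of 5 member probe sets past the threshold, where 2.87% of all probe sets passed it and 2.03% did so with a fall. In whole tissue, fewer cells that express a gene and less of its RNA in each cell cannot be told apart.

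The Lhx8 call lies at the edge of the threshold, and it was lost when only the striatum groups were fitted, without the cerebellar spread. The adjusted p was above 0.05 in 9 of the 12 fits that left out 1 striatum array, with values of -0.75 to -0.50 and adjusted p of 0.0166 to 0.117 over all 12. Within replicate numbers 1 to 3 the Q111 mean was 6.39 against 7.17 in wild type, a difference of -0.78, and within numbers 4 to 6 it was 6.58 against 7.05, a difference of -0.47. Lhx8 was lower in Q111 striatum in every one of these fits. Those that left out 1 array share most arrays with the full fit, so their common sign adds little to it.

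**Figure D2:**
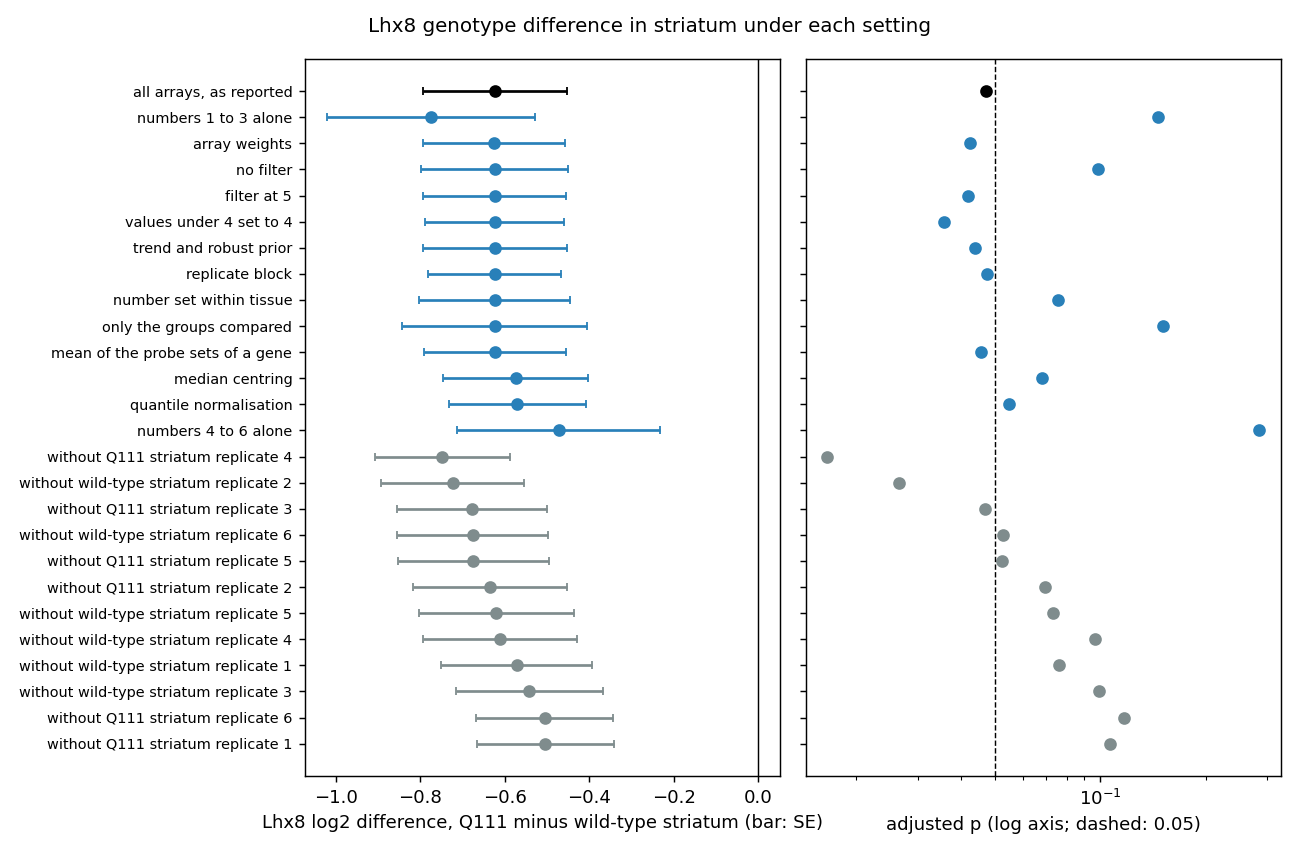
Lhx8 difference between Q111 and wild-type striatum (left, log2, with SE bars) and its limma adjusted p (right, log axis, dashed line at 0.05) for all arrays, for 13 alternative settings and with each striatum array left out. The difference stays below 0 throughout, between -0.78 and -0.47, while the adjusted p falls on both sides of the line.

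In cerebellum Lhx8 was under 4 on every array, at 3.06 to 3.42 with a median of 3.25 in Q111 and 3.05 to 3.33 with a median of 3.21 in wild type. The genotype difference there was 0.05 (SE 0.17, 95% interval -0.30 to 0.40, limma adjusted p = 0.938). The striatal difference minus the cerebellar one was -0.67 (SE 0.24, 95% interval -1.17 to -0.18, limma adjusted p = 0.300), so a difference between the tissues was not called.

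Between the tissues Lhx8 was far higher in striatum. With values under 4 set to 4, it was at least 5.59-fold higher in Q111 striatum than in Q111 cerebellum and at least 8.62-fold higher in wild-type striatum than in wild-type cerebellum. On the deposited values the log2 difference was 3.23 (SE 0.17, limma adjusted p = 2.01e-14) in Q111 and 3.91 (SE 0.17, limma adjusted p = 5.14e-16) in wild type. The order of its levels was wild-type striatum, Q111 striatum and then both cerebellum groups, which did not differ beyond their spread.

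Ache was well measured in all 4 groups. It read 7.40 to 8.39 with a median of 7.85 in Q111 striatum, against 7.84 to 8.69 with a median of 8.40 in wild-type striatum. Of the 6 Q111 striatum arrays, 5 lay below the wild-type mean and 3 lay inside the wild-type range. The log2 difference was -0.48 (SE 0.20, 95% interval -0.89 to -0.07), which missed the threshold over all probe sets (limma adjusted p = 0.176, two-sided exact permutation p = 0.0476 unadjusted).

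The striatal Ache difference was uneven over the replicate numbers, at -0.17 within numbers 1 to 3 and -0.79 within numbers 4 to 6. In cerebellum Ache read 7.17 to 7.80 with a median of 7.50 in Q111 and 6.85 to 7.95 with a median of 7.33 in wild type. That difference was 0.08 (SE 0.20, 95% interval -0.33 to 0.48, limma adjusted p = 0.910), with -0.37 and 0.52 within the 2 sets of numbers. The striatal minus the cerebellar difference was -0.56 (SE 0.28, 95% interval -1.13 to 0.02, limma adjusted p = 0.507).

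Ache was 1.94-fold higher in wild-type striatum (8.36 ± 0.33) than in wild-type cerebellum (7.41 ± 0.45, SD, n = 6 each), a log2 difference of 0.96 (SE 0.20, limma adjusted p = 1.35e-04). In Q111 the difference was 0.40 (7.88 ± 0.38 in striatum and 7.48 ± 0.27 in cerebellum, SE 0.20, 95% interval -0.01 to 0.81, limma adjusted p = 0.0721). Both comparisons had overlapping groups, and whether the tissue difference itself changed with genotype is the interaction above, which was not called. The order of the Ache means was wild-type striatum, Q111 striatum, Q111 cerebellum and wild-type cerebellum, and no 2 neighbours in it passed the threshold.

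Lhx8 and Ache were compared array by array within striatum, since both are used to mark the same interneurons. Over the 12 striatum arrays, as deviations from the genotype mean, Pearson's r was 0.243 (permutation p = 0.474, adjusted p = 0.835 over 10 pairs of Chat, Slc5a7, Slc18a3, Lhx8 and Ache) and Spearman's rho was 0.203 (permutation p = 0.554, adjusted p = 0.857). Without the 2 arrays farthest from the median, r was 0.253. Of the 10 pairs, 0 had an adjusted p under 0.05 by the permutation test, and the other 9 involve a gene under the filter. Pairs with such readings could hardly show covariation, so the count says little about them. They also enter the adjustment of the Lhx8 and Ache pair.

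Other markers moved between the striatum groups beside Lhx8. The mean of 3 endothelial and mural markers was 7.27 to 7.56 in Q111 striatum against 7.64 to 8.08 in wild-type striatum, with 0 of 3 higher (exact permutation p = 0.00216, the smallest that 6 against 6 arrays can give). The mean of 6 microglia markers was 7.94 to 8.31 against 7.49 to 7.98, with 4 of 6 higher (exact permutation p = 0.00433). By limma, 3 of them were called higher and 1 was called lower. The mean of 7 cerebral cortex markers was 7.46 to 8.58 in Q111 striatum against 7.25 to 8.10 in wild-type striatum, with 7 of 7 higher (exact permutation p = 0.0455).

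The mean of 5 oligodendrocyte markers was 10.90 to 11.59 in Q111 striatum against 11.31 to 11.54 in wild-type striatum, with 1 of 5 higher (exact permutation p = 0.0325). The mean of 5 septum, pallidum and basal forebrain markers, regions that hold further cholinergic neurons, was 5.47 to 6.21 in Q111 striatum and 5.74 to 6.45 in wild-type striatum (difference -0.03, exact permutation p = 0.853). Of these 5, 1 was higher in Q111 and was called, and 4 were lower and not called, while Nkx2-1 and Gbx1 of the same list were under the filter, at 1.76 and 2.18 in both genotypes. The projection neuron markers differed by -0.15 (exact permutation p = 0.351), with 2 of 8 higher. The choroid plexus markers spread widely, at 6.24 to 9.56 in Q111 striatum and 5.51 to 9.17 in wild-type striatum (difference -0.15, exact permutation p = 0.853). The thalamus markers read 6.73 to 8.56 in Q111 striatum and 6.83 to 8.88 in wild-type striatum (difference 0.09, exact permutation p = 0.818). In cerebellum the endothelial and mural list differed by -0.22 (exact permutation p = 0.026) and the microglia list by 0.29 (exact permutation p = 0.0281). The oligodendrocyte list differed there by -0.17 (exact permutation p = 0.0303), so these 3 lists moved in the same direction in both tissues. The cortex list differed by 0.01 in cerebellum (exact permutation p = 0.887). The p-values of the lists are unadjusted. The part of any of these lists in the Lhx8 difference was not tested.

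Of the muscarinic receptors, Chrm1 was well measured in striatum and differed between tissues, while no genotype difference was called for Chrm1 or Chrm4. Chrm1, by the brighter of its probe sets, read 9.98 to 10.41 with a median of 10.34 in Q111 striatum and 9.65 to 10.53 with a median of 10.36 in wild-type striatum. All 6 Q111 arrays lay inside the wild-type range. The log2 difference was 0.04 (SE 0.21, 95% interval -0.40 to 0.48, limma adjusted p = 0.944).

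In cerebellum Chrm1 read 3.60 to 4.84 with a median of 4.37 in Q111 and 3.56 to 5.08 with a median of 4.72 in wild type (difference -0.19, SE 0.21, 95% interval -0.63 to 0.25, limma adjusted p = 0.748). Every striatum array exceeded every cerebellum array. The tissue difference was 5.90 (SE 0.21, 59.6-fold, limma adjusted p = 1.34e-17) in Q111 and 5.67 (SE 0.21, 50.8-fold, limma adjusted p = 2.92e-17) in wild type. By level, Chrm1 thus fell into a striatal pair and a cerebellar pair of groups, with no difference called inside either pair.

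The second Chrm1 probe set was much dimmer. It read 4.09 to 5.15 with a median of 4.68 in Q111 striatum and 3.67 to 5.25 with a median of 4.25 in wild-type striatum, and at most 1.84 on any cerebellum array. Its striatal genotype difference was 0.31 (SE 0.21, 95% interval -0.11 to 0.74, limma adjusted p = 0.441), so both Chrm1 probe sets were without a genotype call and both were higher in striatum. With values under 4 set to 4, its tissue difference was at least 1.54-fold in Q111 (limma adjusted p = 0.00215) and 1.29-fold in wild type (limma adjusted p = 0.0558). The wild-type value is no lower bound, since striatum replicate 6, at 3.67, was raised too.

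Chrm4 codes for a receptor that projection neurons of the direct pathway carry. It read 2.96 to 5.45 with a median of 4.09 in Q111 striatum and 2.97 to 5.31 with a median of 3.67 in wild-type striatum, and reached 4 on 3 of 6 Q111 arrays and 2 of 6 wild-type arrays. The arrays of each group scattered widely (SD 0.90 in Q111 and 0.89 in wild type). The genotype difference was 0.14 (SE 0.34, 95% interval -0.56 to 0.85, limma adjusted p = 0.871), with -0.38 within replicate numbers 1 to 3 and 0.66 within numbers 4 to 6. That SE and interval use the spread shared by all groups. In cerebellum the Chrm4 SD was only 0.02 in Q111 and 0.03 in wild type, so they understate the striatal spread.

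In cerebellum Chrm4 stayed between 1.18 and 1.24 in Q111 and between 1.20 and 1.27 in wild type. Its deposited values differed between tissues by 2.94 (SE 0.34, limma adjusted p = 4.41e-08) in Q111 and by 2.79 (SE 0.34, limma adjusted p = 1.05e-07) in wild type. With values under 4 set to 4, the difference was 1.36-fold in Q111 (limma adjusted p = 0.0794) and 1.29-fold in wild type (limma adjusted p = 0.145), so the call rests on readings under the filter. Striatum readings under 4 were raised too, so these folds are no lower bounds.

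**Figure D3:**
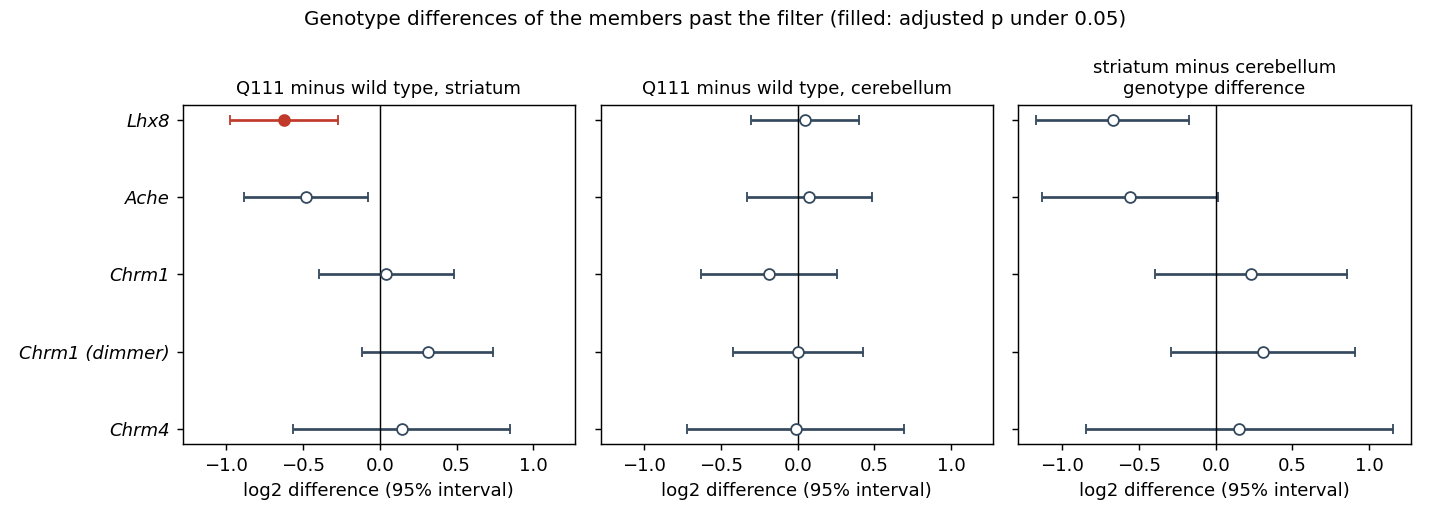
Genotype differences (Q111 minus wild type, log2, horizontal axis, with 95% intervals) of the 5 member probe sets past the filter, in striatum, in cerebellum and as striatal minus cerebellar difference; a filled point has an adjusted p under 0.05. Lhx8 in striatum, at -0.62, is the filled point.

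Counted over the 5 member probe sets past the filter, the genotype comparison in cerebellum called 0, where 0.458% of all probe sets were called, and the difference between the striatal and cerebellar genotype effects called 0, where 0.0868% were. At an unadjusted limma p under 0.05, the cerebellum comparison still held 0 members, where 13.8% of all probe sets passed that level, and the interaction held 1, Lhx8, where 10.1% did. In striatum Lhx8 and Ache passed that level, where 19% of all probe sets did. Lhx8, the dimmer Chrm1 probe set and Chrm4 were under 4 on every cerebellum array. They could hardly show a genotype difference there, so the cerebellar counts say little about them and their interaction rests on the striatal side. The tissue comparison called 4 in Q111, where 71.4% of all probe sets were called and 31.3% were called higher in striatum. In wild type it called 5, where 71.8% were called and 30.6% were called higher. The members called were higher in striatum, and 4 of the 5 did not overlap in either genotype, where 22.7% of all probe sets were higher without overlap in Q111 and 22.2% in wild type. For Lhx8, the dimmer Chrm1 probe set and Chrm4 this direction was set by the filter, which they passed only through striatum. With values under 4 set to 4, 3 were called in Q111 and 3 in wild type. Since most probe sets on the array differed between these tissues, the count by itself says little about the members.

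The genes whose striatum values followed each member most closely were found over the same 12 arrays, as deviations from the genotype mean, among 10766 genes. For Lhx8 these were Lmf1 (r = 0.95), Nolc1 (r = 0.90) and Slc38a10 (r = 0.89), and 9.38% of all genes had an r above 0.5. For Ache they were Pick1 (r = 0.93), Syt11 (r = 0.93) and Stimate (r = 0.91), with 12.9% of genes above 0.5. For Chrm1 they were Trim46 (r = 0.91), Ski (r = 0.87) and Ncoa5 (r = 0.87), with 5.11% above 0.5. For Chrm4 they were Pias4 (r = 0.88), Brdt (r = 0.86) and Nrde2 (r = 0.86), with 3.99% above 0.5. Over the 12 cerebellum arrays Irak2 (r = 0.91), Pantr1 (r = 0.91) and Cops9 (r = 0.90) followed Ache, and Pgap4 (r = 0.95), Mrps23 (r = 0.94) and Tusc3 (r = 0.93) followed Chrm1. These are descriptions of 12 arrays that share dissections and labelling, and the highest values among so many genes are high by selection.

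Genes around the cholinergic synapse were taken from 5 lists, with 1 probe set per gene. In the genotype comparisons, 19% of all probe sets had an unadjusted limma p under 0.05 in striatum and 13.8% in cerebellum. The unadjusted counts of the lists stand beside these shares. Of 16 nicotinic receptor genes, 2 passed the filter, and neither was called between genotypes in either tissue by limma (0 at an unadjusted p under 0.05), where 2.78% of 10766 genes were called in striatum and 0.446% in cerebellum. Chrna7, the subunit of the homomeric alpha7 receptor, was higher in wild-type striatum (6.42 ± 0.25) than in wild-type cerebellum (4.31 ± 0.37), a difference of 2.12 (SE 0.21, limma adjusted p = 3.94e-09). Chrnb2, the beta subunit of most brain nicotinic receptors, was lower in wild-type striatum (7.61 ± 0.13) than in wild-type cerebellum (8.43 ± 0.11), a difference of -0.82 (SE 0.09, limma adjusted p = 9.23e-09).

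All 6 genes for proteins that bind nicotinic receptors or help assemble them passed the filter. Of these, 0 were called between genotypes in either tissue by limma (unadjusted p under 0.05: 0 striatal and 2 cerebellar genes), while 3 were higher and 2 lower in wild-type striatum than in wild-type cerebellum, where 32.1% and 41.6% of all genes were called that way. Lypd1, a membrane-anchored receptor modulator, read 6.95 ± 0.22 in wild-type striatum and 3.70 ± 0.45 in wild-type cerebellum, at least 7.31-fold higher with values under 4 set to 4 (limma adjusted p = 1.91e-12). Its relatives went both ways, Lypd6b 2.19-fold higher with values under 4 set to 4 and Lypd6 with a log2 difference of -1.46. Lypd1 and Lypd6b passed the filter only through striatum, so their direction here and in the count was set by the filter.

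Of 14 genes for choline handling and esterase partners, 13 had a probe set with no other symbol and 9 passed the filter. Of those 9, 0 were called between genotypes in either tissue by limma (unadjusted p under 0.05: 0 striatal and 1 cerebellar gene). Their median genotype difference in striatum was -0.16 on the log2 scale, against a median of -0.03 over all genes. Prima1, which anchors acetylcholinesterase in the membrane, read 7.75 ± 0.30 in Q111 striatum and 7.95 ± 0.34 in wild-type striatum (difference -0.20, SE 0.15, 95% interval -0.51 to 0.11, limma adjusted p = 0.501).

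In cerebellum Prima1 read 3.04 ± 0.28 in Q111 and 2.98 ± 0.14 in wild type, under the filter in both. With values under 4 set to 4 it was at least 15.4-fold higher in wild-type striatum than in wild-type cerebellum (limma adjusted p = 9.11e-19). Prima1 passed the filter only through striatum, so its direction here and in the count below was set by the filter. Some enzymes that use choline for phospholipid synthesis were lower in wild-type striatum. The choline kinase Chkb differed by -1.75, the cholinephosphotransferase Chpt1 differed by -1.35 and the CDP-choline enzyme Pcyt1a by -1.13, each with a limma adjusted p of at most 1.25e-07. Pcyt1b and Cept1, which act in the same synthesis, were not called, at 0.04 and -0.16. In all, 2 genes of this list were higher and 5 lower in wild-type striatum, against 32.1% and 41.6% of all genes.

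Of 12 genes tied to cholinergic interneuron identity, only 8 had a probe set with no other symbol, and 4 passed the filter. Of those 4, 0 were called between genotypes in either tissue by limma (1 in each tissue at an unadjusted p under 0.05). Isl1, the LIM homeodomain partner of Lhx8, read 6.18 to 7.17 with a median of 6.72 in Q111 striatum and 6.79 to 7.08 with a median of 6.97 in wild-type striatum. Of the 6 Q111 arrays, 5 lay below the wild-type mean, and the difference was -0.33 (SE 0.11, 95% interval -0.56 to -0.09, limma adjusted p = 0.114, exact permutation p = 0.0693). That SE and interval use the spread shared by all groups. The Isl1 SD was 0.38 in Q111 striatum and 0.11 in wild-type striatum, against 0.08 in Q111 cerebellum and 0.04 in wild-type cerebellum. A second, dimmer Isl1 probe set differed by 0.40 in the opposite direction (limma adjusted p = 0.262).

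Isl1 read 6.96 ± 0.11 in wild-type striatum and 1.70 ± 0.04 in wild-type cerebellum (SD, n = 6 each), where it was under the filter, so with values under 4 set to 4 it was at least 7.76-fold higher in striatum (limma adjusted p = 2.53e-17). Lhx6, which marks interneurons from the same embryonic source, was at least 3.83-fold higher in wild-type striatum on the same terms, and differed by -0.30 between genotypes in striatum (SE 0.22, 95% interval -0.76 to 0.16, limma adjusted p = 0.504). Zic4, a zinc finger factor, was under the filter in wild-type striatum, at least 3.77-fold lower than in wild-type cerebellum. Isl1 and Lhx6 passed the filter only through striatum and Zic4 only through cerebellum, so these tissue directions were set by the filter.

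A list of 20 genes held the receptor gene Chrm5 and genes for proteins to which muscarinic receptors couple. Of these, 18 had a probe set with no other symbol and 16 passed the filter. By limma, 1 of the 16 was called between genotypes in striatum, higher in Q111, as were 0.873% of all genes. In cerebellum limma called 0 of them. At an unadjusted limma p under 0.05, 4 of them passed in striatum and 1 in cerebellum, where 19% and 13.8% of all probe sets did. The gene called in striatum was Gnaq, the alpha subunit of Gq. It read 10.36 to 10.71 with a median of 10.61 in Q111 striatum against 10.09 to 10.41 with a median of 10.27 in wild-type striatum, and 1 Q111 array lay inside the wild-type range. The difference was 0.30 (SE 0.07, 95% interval 0.17 to 0.44, 1.23-fold, limma adjusted p = 0.0163, exact permutation p = 0.00433).

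The other 6 Gnaq probe sets past the filter were not called, and 1 of them had a difference of -0.12 in the opposite direction. With the mean over the gene's probe sets, the Gnaq difference was 0.14 (limma adjusted p = 0.141). In cerebellum Gnaq differed by -0.09 (SE 0.07, limma adjusted p = 0.593), and the striatal minus the cerebellar difference was 0.39 (SE 0.09, limma adjusted p = 0.0911).

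Between tissues, 8 coupling genes of 16 were higher and 7 lower in wild-type striatum, where 32.1% and 41.6% of all genes were called that way. The regulator Rgs4 read 12.73 ± 0.29 in wild-type striatum and 4.31 ± 0.74 in wild-type cerebellum, a difference of 8.42, or 8.25 with values under 4 set to 4 (limma adjusted p = 3.72e-19 and 5.53e-23). Rgs9, a regulator enriched in striatum, differed by 6.42 and Rgs2 by 4.59. The M-current channel subunit Kcnq5, under the filter in cerebellum, was at least 59.7-fold higher with values under 4 set to 4. Kcnq5 passed the filter only through striatum, so its direction here and in the count was set by the filter. At the low end were Plcb4, a phospholipase C that Purkinje cells use, at -3.47, and the channel subunit Kcnj3 at -2.75.

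**Figure D4:**
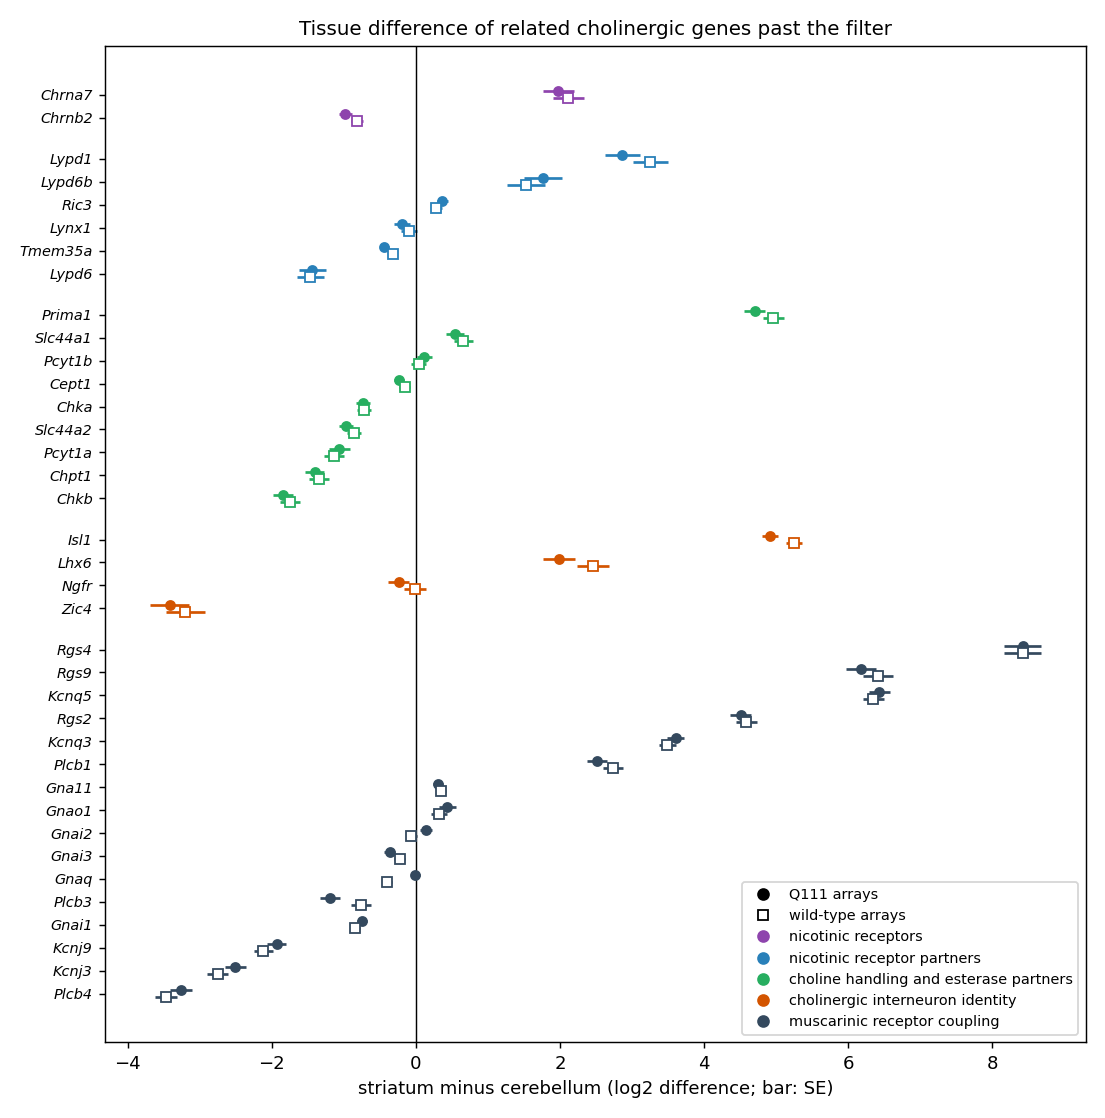
Striatum minus cerebellum difference (log2, horizontal axis, with SE bars) of the 37 related genes past the filter, by list, on the deposited values, including those under 4; filled circles are Q111 arrays and open squares wild-type arrays. Both genotypes lie close together for most genes, with Rgs4 at 8.42 and Plcb4 at -3.47 as the wild-type extremes. Lypd1, Lypd6b, Prima1, Isl1, Lhx6, Kcnq5 and Zic4 passed the filter only through the tissue where they are higher, which set their direction.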

How the data were processed

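Expression was measured on 24 single-colour oligonucleotide arrays. The authors deposited 1 table of log2-like values made with GCRMA, per the submitters' processing notes. The GCRMA version and the log base are not given in the sources used here; the deposited values ran from -0.77 to 16.33, and they were read as log2. Array medians were 3.38 to 3.51. GCRMA corrects background from probe sequence and makes array distributions alike, so readings near its floor are compressed.

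The table held 45101 probe sets, and 64 controls were left out. Gene symbols are those of the 2016 platform annotation, in which 34945 of the 45037 others have a single symbol, 932 several and 9160 none. Probe sets with a mean of at least 4 in striatum or cerebellum (20738) were fitted over all arrays, with 1 mean for each of the 4 groups, by limma 3.58.1 (R 4.3.3), with 20 residual degrees of freedom. Adjusted p is limma's two-sided moderated test after Benjamini-Hochberg over these probe sets, at a threshold of 0.05. Single values also had a two-sided exact permutation test over 6 and 6 arrays. Differences are log2, Q111 minus wild type or striatum minus cerebellum.

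In both tissues, arrays numbered 1 to 3 and arrays numbered 4 to 6 had nearly equal means over probe sets: the SD of the difference was 0.0392 in striatum and 0.0384 in cerebellum, against 0.154 and 0.132 for the genotype difference. No label records a step that would set them equal, and values within each set are given where they differ.

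All member probe sets are named; of each related list, the genes called between genotypes and up to 4 with the largest tissue differences in wild type are named, and Plcb4 and Kcnj3 were added after their values were seen. The brightest probe set of a gene stood for it. Members and lists were chosen with earlier results of these data known. The alternatives covered the filter, normalisation, prior, array weights, replicate number or number set, arrays used, thresholds and leaving out each array. The model was tested on simulated arrays. Promoter windows are from RefSeq, GRCm38.p6; 8 of the 9 member genes had one.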

Additional observations from a re-analysis of the deposited data

Results flagged for a closer look

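Of the 36 sets of 6 arrays formed by the 9 member probe sets and 4 groups, 1 held an array far from the others. The dimmer Chrm1 probe set read 1.10 on wild-type cerebellum replicate 6, and the nearest other array of that group read 1.45. The gap was 0.779 of the group's range, above the critical value of 0.625 for 6 arrays. Chance marks about 1 in 20 groups, and all readings of this probe set in cerebellum lie under the filter.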

How the results depend on the processing

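The count of members called between genotypes in striatum, 1 with all arrays, was 0 without a filter, with quantile normalisation, with median centring, with the number set in the model, with only the groups compared, with numbers 1 to 3 alone, with numbers 4 to 6 alone and at a threshold of 0.01, and 0 to 1 with an array left out. The Lhx8 adjusted p (limma) under these settings was 0.0981 without a filter, 0.0546 with quantile normalisation (difference -0.57), 0.0679 with median centring (-0.57), 0.0757 with the number set, 0.151 with only the groups compared, 0.146 with numbers 1 to 3 alone and 0.284 with numbers 4 to 6 alone. It was above 0.05 without Q111 striatum replicate 1, 2, 5 or 6 or wild-type striatum replicate 1, 3, 4, 5 or 6. The tissue count of 5 in wild type was 3 with the filter at 5 and 3 with values under 4 set to 4, and the count of 4 in Q111 was 2 with the filter at 5. Of 141 counts over all settings, 121 stayed within 1.5 times the reported count. That total includes the cerebellar and interaction counts, which were 0 throughout. The striatal genotype count moved in 8 of 14 alternatives and in 9 of 12 fits that left out 1 array, so the total says little about it. Same-numbered arrays of the 2 genotypes did not deviate together (correlations of -0.41 to -0.09 in striatum and -0.42 to 0.12 in cerebellum), and between the tissues 3 of 6 same-numbered wild-type arrays and 2 of 6 Q111 arrays correlated over 0.1 (at most 0.18 and 0.14). Not every pair did in any comparison, so the numbers were not taken to pair the samples; with a replicate block, Lhx8 in striatum was -0.62 with a limma adjusted p of 0.0475 and the count stayed at 1. Signs turned only for differences that were not called. With numbers 1 to 3 alone, the difference was -0.10 for Chrm1 and -0.38 for Chrm4 in striatum, -0.37 for Ache and -0.061 for the dimmer Chrm1 probe set in cerebellum, and the interaction was 0.20 for Ache and -0.37 for Chrm4. With numbers 4 to 6 alone, the cerebellar difference was -0.044 for Lhx8 and 0.005 for Chrm1. In cerebellum, median centring gave 0.086 for Chrm4 and array weights gave -0.0063 for the dimmer Chrm1 probe set. With the mean of a gene's probe sets, Isl1 in striatum was 0.037. Leaving out 1 array gave -0.082 to 0.10 for the dimmer Chrm1 probe set and -0.036 to 0.18 for Ache in cerebellum, -0.12 to 0.40 for Chrm4 and -0.072 to 0.10 for Chrm1 in striatum, and -0.10 to 0.42 for the Chrm4 interaction. The Gnaq call in striatum (0.30) was lost with only the groups compared, in either set of numbers alone, with the mean of its probe sets, and without wild-type striatum replicate 4. Fits with only the groups compared also leave out the spread of the other groups. Except for the smaller sets of arrays and the changed numbers of probe sets tested, the cause of these changes was not tested. Readings under 4 and 6 arrays per group set the limits: Chat, Slc5a7, Slc18a3 and Chrm3 could not be compared, and the intervals of Chrm1 and Chrm4 allow moderate genotype differences. The Chrm4 interval also draws on its small cerebellar spread, so it does not exclude larger ones.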
